A study of Drosophila melanogaster with 28 samples.

Results

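RNA levels of 5 cyclin genes (CycA, CycB, CycB3, CycD and CycE) and of both Cdc25 phosphatase genes, stg (string) and twe (twine), were examined in Drosophila melanogaster. These 7 genes were chosen by name, with earlier results of these data known, out of 13892 gene names found on a single line of the deposited tables. All 7 passed the filter on low values that 11488 genes passed. Gene expression was measured in 8 libraries, with 2 each of OSS (ovarian somatic sheet cells, a line kept in culture), whole dissected ovaries, the carcass left after ovariectomy and embryos aged 0 to 2 h. OSS cells were grown in supplemented M3 medium and flies were raised at 25 °C on cornmeal-molasses medium and given yeast paste, per the labels, which state no strain, genotype or fly age for these 4 groups. OSS is 1 cell line, and the labels do not say whether its libraries, or those of the tissues, came from separate cultures or animals, so p-values measure only the spread between these libraries. The other 20 libraries of the series, germline knockdowns made with the nos-GAL4 driver, were not used here.

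Cyclins are the regulatory subunits of cyclin-dependent kinases (Cdks), and each cyclin directs its kinase to part of the cell cycle. Mitotic Cdk1 is held inactive by inhibitory phosphorylation, and Cdc25 phosphatases remove it. Drosophila oogenesis uses these genes in several ways: germline and early follicle cells divide, nurse cells and follicle cells later replicate their DNA without dividing, and the oocyte stores RNA for the rapid syncytial divisions of the embryo, which run before most zygotic transcription begins.

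The tissue labels were checked against markers. The 5 germline markers (vas, osk, nos, orb and AGO3) summed to 1104.5 and 1145.5 FPKM (read fragments per transcript length and library size) in the ovary libraries, against 10.6 and 11.9 in OSS, where the 4 ovarian somatic markers summed to 203 to 205. The 5 muscle markers summed to 4387 and 4886 in carcass. The ovarian somatic markers summed to 69.4 and 66.1 there, beside 63.3 and 66.3 in ovary, so they do not set ovary apart from carcass. In carcass most of that sum was Fas3, at 64.1 and 58.8. The 5 eggshell markers of follicle cells summed to 6617.5 and 6722 in ovary and to 8.97 and 17.2 in embryo, where the 5 early zygotic markers summed to 98.9 and 112.5, with 3 of the 5 listed at 0. Nearly all of that sum was slam, at 98.3 and 111 in embryo and 36.6 in both ovary libraries, so the sum rests on 1 gene. The 3 maternal RNA markers (bcd, smg and gnu) summed to 1212 and 1191 in embryo and 635 in both ovary libraries. Of these, gnu went the other way, at 1.24 and 3.24 in embryo and 245 and 248 in ovary. The germline markers summed to 363.9 and 360.3 in embryo, below ovary. The labels and file headers name no read totals, so the depth behind the values is unknown. The lowest member value was 5.16 FPKM. Summed over all genes, FPKM ranged from 459357 to 629055 per library. FPKM is a relative measure, scaled to library size, and in bulk samples fewer cells of a type and less RNA per cell cannot be told apart.

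The member with the highest mean was CycB in embryo and CycA in each of the other 3 groups, both mitotic cyclin genes. CycA, which acts in S phase and mitosis, stood at 758 and 740.4 FPKM in the 2 embryo libraries, 577 and 549.9 in ovary, 246.3 and 246.1 in OSS and 40.8 and 37.6 in carcass. The order was thus embryo, ovary, OSS, carcass, with no overlap between neighbouring groups. CycB, a cyclin of mitotic entry, was at 962 and 969.7 in embryo, 455 and 463 in ovary, 87.8 and 94.0 in OSS and 31.2 and 29.4 in carcass. CycB ranked 21st of the 13892 genes in both embryo libraries, and CycA ranked 44th and 43rd. CycB3, a mitotic cyclin that also acts in female meiosis, had the widest range of the 7 genes, with 609 and 645 in embryo, 119 and 126 in ovary, 34.4 and 33.0 in OSS and 5.33 and 5.16 in carcass. Its embryo mean was 119.6 times its carcass mean, against 31.9 times for CycB and 19.1 times for CycA.

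CycD, the partner of Cdk4 in growth and G1 control, was at 333.8 and 334.4 FPKM in embryo, 111 and 108 in ovary, 57.7 and 59.9 in OSS and 16.4 and 19.4 in carcass. CycE, the partner of Cdk2 in the start of S phase and in endocycles, was at 181 and 187 in embryo, 141 and 142 in ovary, 38.0 and 40.4 in OSS and 8.55 and 7.79 in carcass. Both genes followed the same order of groups as the mitotic cyclins. Their own order differed between groups, since CycE exceeded CycD in ovary and CycD exceeded CycE in OSS, carcass and embryo.

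The Cdc25 genes differed from each other in pattern. The phosphatase gene twe, known for its role in meiosis and in the syncytial cycles, was at 321 and 314 FPKM in embryo, 92.6 and 88.6 in ovary, 15.8 and 15.7 in OSS and 6.15 and 6.39 in carcass, the same order as the cyclins. The phosphatase gene stg, whose zygotic pulses time the divisions after the syncytial stage, was at 149 and 155 in ovary, 121.3 and 121.5 in OSS, 116 and 100.4 in embryo and 7.83 and 9.24 in carcass. It was thus the only member of the 7 whose FPKM as deposited was not highest in embryo. Replicates lay close together for all members, with a coefficient of variation between 0.0606% (CycA in OSS) and 12.1% (CycD in carcass) and a median of 2.85%.

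**Figure D1:**
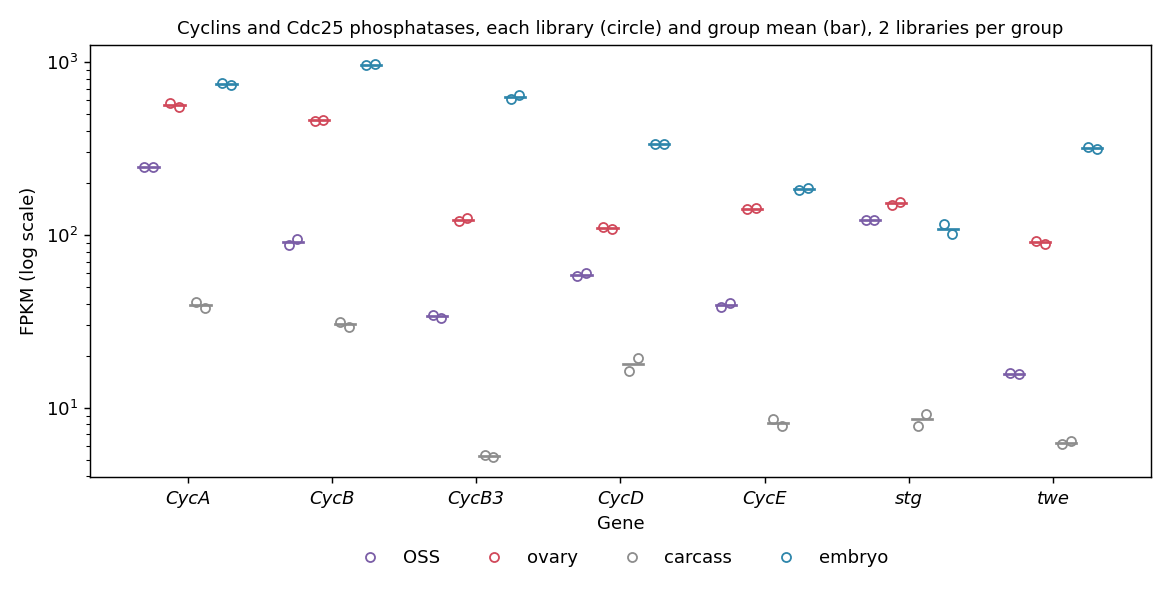
FPKM on a log scale of each of the 7 genes in each of the 8 libraries, with circles for libraries and bars for the means of the 4 groups of 2. Carcass is lowest for all 7 genes, embryo is highest for 6 genes, and stg is highest in ovary.

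Ovary was compared with carcass, which asks which transcripts are enriched in the female reproductive tissue. All 7 members were higher in ovary, where 74.6% of all genes tested were called, 43.5% higher and 31.1% lower (limma, Benjamini-Hochberg adjusted p under 0.05 over 11488 genes, as for all calls). CycB3 differed most, with 123 ± 4.47 FPKM (SD, n = 2, as for all means) in ovary and 5.24 ± 0.125 in carcass, a difference of 4.31 on the log2(FPKM + 1) scale (SE 0.09, adjusted p = 1.58e-06 by limma). The Cdc25 genes stg and twe differed by 4.01 and 3.66 and the cyclin genes CycE, CycB and CycA by 3.96, 3.88 and 3.81. CycD differed least, at 109 ± 2.21 against 17.9 ± 2.16, a log2 difference of 2.55 (SE 0.10, adjusted p = 3.49e-06 by limma). The median difference over the 7 members was 3.88, beside 0.31 over all genes tested, which was 0.69 without carcass replicate 2 and 0.10 with no filter on low values. All 7 were called higher under quantile normalization and median-ratio scaling too, although under the latter the share of calls that were higher over all genes went from 58.3% to 40.6% and the median of all genes to -0.30.

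Germline and eggshell markers were detected in carcass, with none of the 5 in either list at 0. The germline sums, 62.2 and 71.3 FPKM, were 5.94% of the ovary mean. The eggshell sums, 293.7 and 299.6, were 4.45% of theirs but rested on different genes, since Cp38 was at 264 in carcass replicate 1 and 39.1 in replicate 2 and Vm34Ca at 4.01 and 122. Of the 7 members 6 stood at 4.28% (CycB3) to 6.96% (CycA) of their ovary level. CycD stood at 16.3%. The part of ovarian RNA in the carcass values of these genes was not tested.

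Ovary was compared with OSS, ovarian somatic cells without germline, to set the whole organ against its dividing somatic cells in culture. Of the 7 members 6 were higher in ovary, where 41.7% of all genes were called, 18.8% higher and 23% lower. The largest log2 differences were those of twe, whose mean was 90.6 ± 2.82 FPKM in ovary against 15.7 ± 0.0299 in OSS cells, with 2.45 (SE 0.10, adjusted p = 8.42e-06 by limma), and of CycB with 2.33 (SE 0.07, adjusted p = 3.58e-06 by limma). CycB3 and CycE both differed by 1.83, CycA by 1.19 and CycD by 0.88 (SE 0.10, adjusted p = 0.000542 by limma). The phosphatase gene stg had 152 ± 4.43 in ovary against 121 ± 0.160 in the cell line, which differ by 0.32 in log2 (95% interval 0.05 to 0.60, adjusted p = 0.0612 by limma). It passed the threshold after quantile normalization (0.55, adjusted p = 0.0113 by limma), in a fit on these 2 groups alone (0.32, adjusted p = 0.00207 by limma) and without any 1 of the carcass or embryo libraries (adjusted p = 0.0226 to 0.0445 by limma). The count of all genes called, 4796, dropped to 2879 when OSS replicate 1 was left out, to 2928 when OSS replicate 2 was and to 3056 when ovary replicate 2 was, and 6 members were called in each. Beside these results, germline markers in OSS summed to 1.00% of their ovary mean, and the ovarian somatic markers summed to 63.3 and 66.3 in ovary. The eggshell markers of follicle cells summed to 18.0 and 13.6 FPKM in OSS, 0.24% of their ovary mean. The part of cell composition in the differences was not tested.

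OSS cells were also set against carcass, where all 7 members were higher. Of all genes 76% were called, 46.1% higher and 29.9% lower, and the share of calls that were higher went from 60.6% to 41% after median-ratio scaling. The largest difference was that of stg, 3.69 on the log2 scale (SE 0.12, adjusted p = 1.57e-06 by limma). CycA followed with 2.62, CycB3 with 2.47, CycE with 2.13, CycD with 1.67, CycB with 1.55 and twe with 1.20. The Cdc25 pair thus stood at opposite ends of the 7 members in this comparison.

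Embryo was compared with ovary, which sets the RNA of the early embryo, largely loaded by the mother, against that of the organ that makes it. CycB3 averaged 627 ± 25.1 FPKM in embryo against 123 ± 4.47 in ovary, which is 2.35 in log2 (SE 0.09, adjusted p = 1.38e-06 by limma). The phosphatase gene twe rose from 90.6 ± 2.82 to 318 ± 4.92, a difference of 1.80 (SE 0.10, adjusted p = 4.92e-06 by limma), CycD rose by 1.60 (SE 0.10, adjusted p = 9.80e-06 by limma) and CycB by 1.07 (SE 0.07, adjusted p = 1.19e-05 by limma). Smaller differences were found for CycA, 0.41 (SE 0.07, adjusted p = 0.00142 by limma), and CycE, 0.37 (SE 0.10, adjusted p = 0.0116 by limma). The call for CycE was lost after quantile normalization (0.14, adjusted p = 0.651 by limma) and without ovary replicate 1 (adjusted p = 0.0707 by limma) or replicate 2 (adjusted p = 0.0632 by limma). Thus 6 of 7 members were called higher and 1 lower, where 59.9% of all genes were called, 15.1% higher and 44.8% lower. The share of calls over all genes that were higher was 25.2%, against 53.5% with quantile normalization and 47.7% with median-ratio scaling.

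In the same comparison stg fell by 0.49 (SE 0.12, adjusted p = 0.00778 by limma), from 152 ± 4.43 FPKM in ovary to 108 ± 11.0 in embryo, but after median-ratio scaling it was higher in embryo by 0.75 (adjusted p = 0.00212 by limma). Without ovary replicate 2 its difference was -0.46 and not called (adjusted p = 0.0559 by limma). Over all genes the median difference was -0.58, which became 0.18 with quantile normalization, 0.00 with median-ratio scaling, -1.21 with a pseudocount of 0.1, -0.33 with no filter on low values and -1.24 in a fit on these 2 groups. Set among all genes tested, the difference of CycB3 stood at percentile 99.6, twe at 98.1, CycD at 96.5, CycB at 90.7, CycA at 77.9, CycE at 77.1 and stg at 52.0. In rank order among genes within a library stg moved from 607th and 555th in ovary to 1058th and 1225th in embryo, whereas twe moved from 1421st and 1481st to 205th and 204th.

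Embryo was also set against the other groups. Against OSS, 6 of 7 members were higher, where 68.3% of all genes were called, 17% higher and 51.4% lower, led by twe with a log2 difference of 4.25 (SE 0.10, adjusted p = 2.21e-07 by limma) and CycB3 with 4.18 (SE 0.09). For stg the difference was -0.17 (95% interval -0.44 to 0.11, adjusted p = 0.239 by limma), and 1.15 after median-ratio scaling (adjusted p = 0.000223 by limma). Against carcass all 7 were higher, where 77.7% of all genes were called, 23.7% higher and 54.1% lower, from CycB3 with 6.65 (SE 0.09, adjusted p = 5.43e-08 by limma) and twe with 5.45 down to stg with 3.52 (SE 0.12, adjusted p = 4.29e-07 by limma). With quantile normalization the share of calls that were higher went from 24.8% to 49.9% against OSS and from 30.5% to 54.1% against carcass. These comparisons share libraries with those above and are not independent of them.

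**Figure D2:**
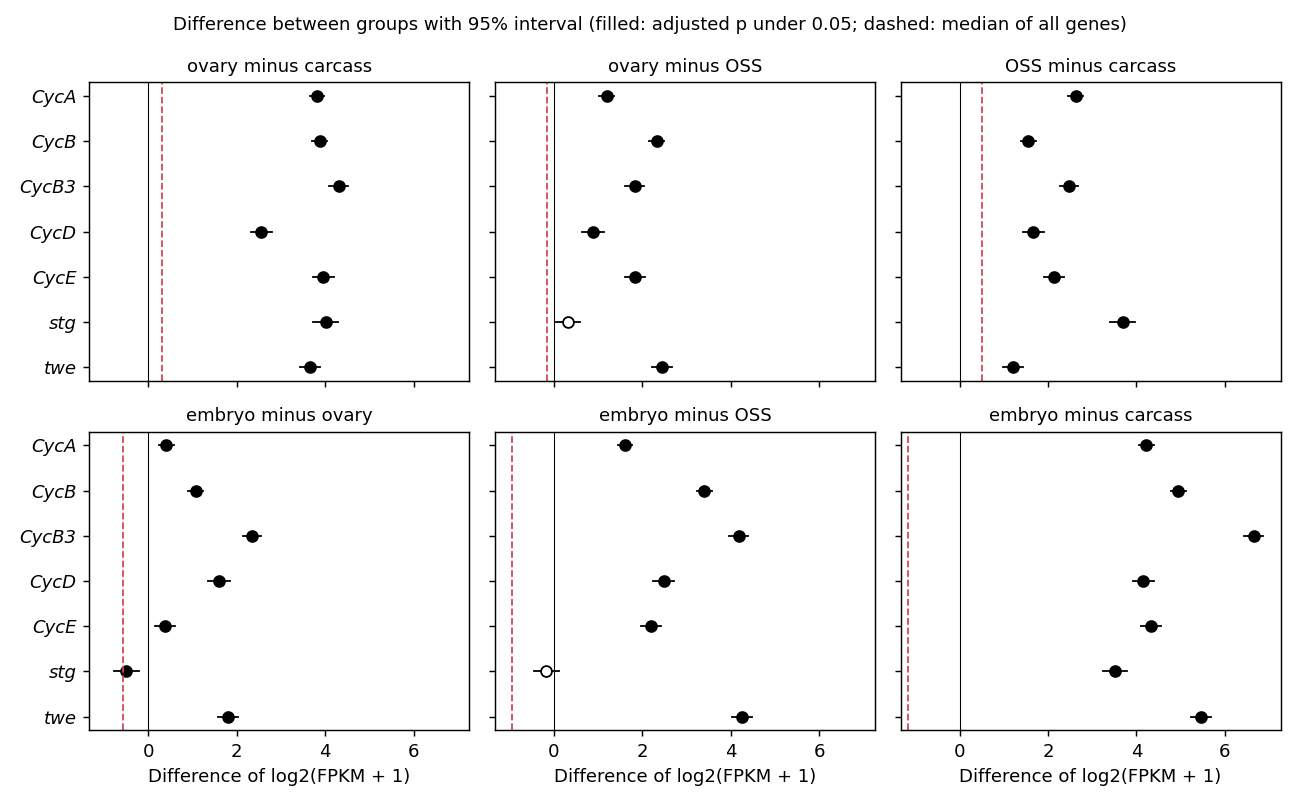
Differences of log2(FPKM + 1) for the 7 genes in the 6 comparisons, with 95% intervals from limma; the solid line is 0 and the dashed line is the median of all genes. All genes lie right of the dashed line by more than their interval except stg in embryo minus ovary, where its difference of -0.49 lies beside the median of -0.58 (0.75 against 0.00 after median-ratio scaling).

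Ratios of members within a library do not change when all its values are multiplied by the same factor, but they can change under quantile normalization. The FPKM ratio of twe to stg was 0.130 and 0.129 in the OSS libraries, 0.621 and 0.570 for ovary, 0.785 and 0.692 for carcass and 2.77 and 3.13 for embryo. The embryo libraries were thus the only ones of the 8 with more twe than stg. On the log2 scale the ratio was -2.95 ± 0.00464 in OSS, -0.75 ± 0.0869 in ovary, -0.44 ± 0.128 in carcass and 1.56 ± 0.124 in embryo. These ratios are given as a description, with no test.

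Among the cyclins, the mix also differed between groups. CycA made up 52.5% ± 0.755 of the summed cyclin FPKM in OSS, 40.3% ± 1.06 in ovary, 38.9% ± 1.47 in carcass and 26.2% ± 0.647 in embryo. CycB3 made up 21.9% ± 0.707 in embryo and 8.78% ± 0.383, 7.19% ± 0.314 and 5.20% ± 0.0150 in ovary, OSS and carcass. CycB held 32.9% ± 0.643 in ovary and 33.8% ± 0.0706 in embryo, and 19.4% ± 0.662 in OSS. CycD ranged from 7.84% ± 0.102 in ovary to 17.8% ± 2.52 in carcass, and CycE from 6.44% ± 0.0852 in embryo to 10.2% ± 0.134 in ovary. The sum of the 5 cyclins was 2861 ± 22.1 FPKM in embryo, 1396 ± 9.98 in ovary, 469 ± 6.46 in OSS and 101 ± 2.11 in carcass.

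**Figure D3:**
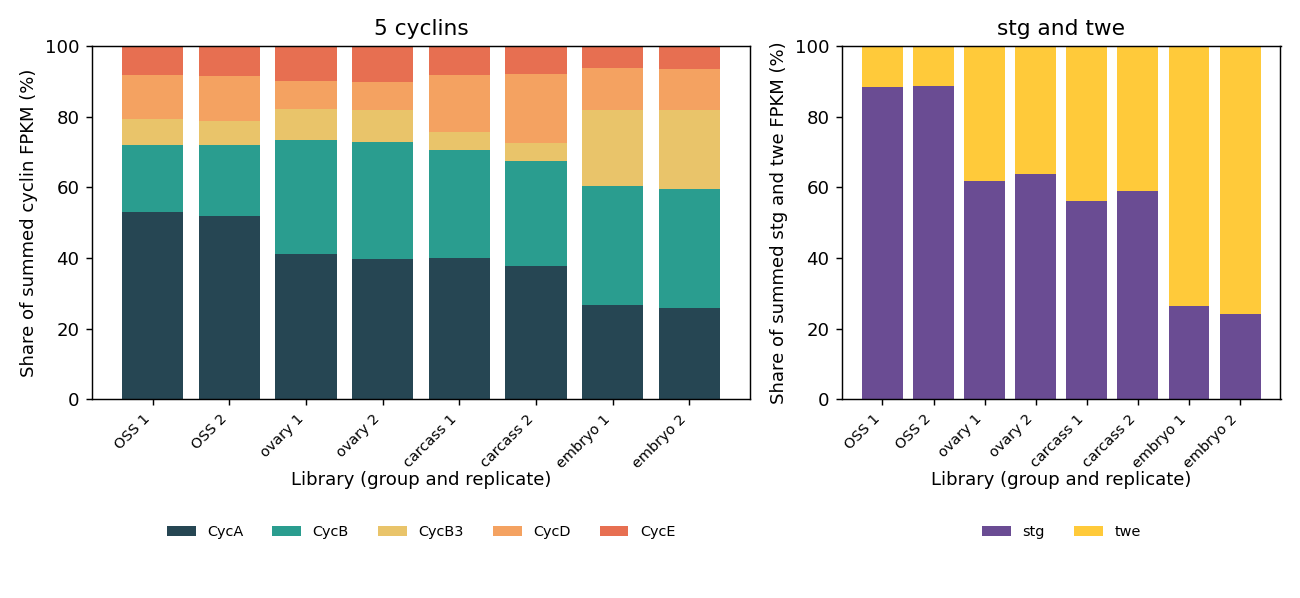
Shares in each library of the summed FPKM of the 5 cyclin genes (left) and of stg and twe (right), as stacked bars that add to 100%. CycA takes 52.5% in OSS and 26.2% in embryo on average, and stg takes 88.5% of the Cdc25 pair in OSS and 25.4% in embryo.

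The kinases that these cyclins bind did not all follow them. The mitotic kinase gene cdc2 (Cdk1), partner of CycA, CycB and CycB3, was at 157 ± 1.21 FPKM in ovary, 147 ± 0.581 in OSS, 145 ± 5.14 in embryo and 7.30 ± 0.824 in carcass. It was higher in ovary than in carcass, with a log2 difference of 4.25 (SE 0.10, adjusted p = 1.74e-06 by limma), but was not called between ovary and OSS (0.09, adjusted p = 0.523 by limma) or between embryo and ovary (-0.11, adjusted p = 0.394 by limma), the last being -0.36 after quantile normalization (adjusted p = 0.0196 by limma) and 1.14 after median-ratio scaling (adjusted p = 7.79e-05 by limma). The S-phase kinase gene cdc2c (Cdk2), partner of CycE, fell from 146 ± 1.08 in ovary to 4.59 ± 1.05 in embryo, a difference of -4.73 (SE 0.27, adjusted p = 6.34e-06 by limma), while CycE itself stood at 0.37. Cdk4, partner of CycD, was at 55.0 ± 4.86 in ovary and 71.5 ± 1.47 in embryo and was not called (0.38, SE 0.25, adjusted p = 0.244 by limma), but it was called higher after quantile normalization (0.95, adjusted p = 0.0356 by limma), after median-ratio scaling (1.61, adjusted p = 0.000206 by limma), in a fit on these 2 groups and without either carcass library (adjusted p = 0.0106 to 0.0174 by limma).

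Regulators of the members were described from 10 lists of cell cycle genes, 60 names in all, of which 58 were tested. Between ovary and carcass 56 of the 58 were higher and none was lower, beside 43.5% and 31.1% of all genes, and the uncalled genes were CycG (0.20) and Cks85A (0.54), named after their values were seen, which stood at -0.63 and -0.28 after median-ratio scaling, where 52 genes were higher and 1 was lower. Under that scaling 40.6% of the calls over all genes were higher. CycG was called higher after quantile normalization (0.31, adjusted p = 0.0497 by limma), and Cks85A in a fit on the 2 groups (adjusted p = 0.00949 by limma) and without embryo replicate 1 (0.00537) or 2 (0.00453). Between ovary and OSS 25 were higher and 5 lower, beside 18.8% and 23% of all genes, with a median of 0.28 beside -0.16 over all genes. Without any 1 of the OSS or ovary libraries 13 to 15 were higher and 1 to 3 lower, and in a fit on the 2 groups 31 and 14. The shares of all genes above are those of the main fit. Without any 1 of these libraries, 46.5% to 52.6% of the calls over all genes were higher. In the fit on the 2 groups 7289 genes were called, 41.6% of them higher. The Cdk inhibitor genes dap (1.07) and rux (1.18) were higher in ovary, but dap was not called without OSS replicate 1 (adjusted p = 0.0617 by limma) or ovary replicate 2 (0.0657), nor rux after quantile normalization (0.0503) or without OSS replicate 2 (0.0891) or either ovary library (0.0572 and 0.0819). The gene trbl, whose product promotes the breakdown of String and Twine proteins, was lower there (-0.79). Between embryo and ovary 12 of the 58 were higher and 34 lower as deposited, beside 15.1% and 44.8% of all genes. With quantile normalization these counts were 20 and 26, and with median-ratio scaling 24 and 28. Over all genes 53.5% and 47.7% of the calls were higher under these 2 settings.

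In embryo the genes that oppose or promote the members moved in both directions. As in the counts above, directions here are those of the values as deposited. Of the 5 genes for inhibitory kinases, Cdk inhibitors and the Cdc25 regulator trbl, 4 were lower than in ovary, trbl (-3.79), Myt1 (-4.04), dap (-4.16) and rux (-4.26). The kinase gene wee, which phosphorylates Cdk1, was higher (1.28, SE 0.19, adjusted p = 0.000836 by limma). The call for Myt1 was lost after quantile normalization (-1.81, adjusted p = 0.0647 by limma). All 3 genes of the ubiquitin ligase that marks Cyclin E for breakdown were higher, skpA by 1.63, lin19 (Cul1) by 1.56 and ago by 1.45. All 3 genes of the Cdk-activating kinase were lower, as were 4 of 5 genes of the E2F and Rb family, with none higher. Of 11 genes for mitotic kinases and phosphatase regulators 4 were higher and 4 lower. Of 12 genes for subunits, activators and inhibitors of the anaphase-promoting complex, which marks mitotic cyclins for breakdown, 2 were higher and 8 lower. These counts stand beside the same 15.1% and 44.8% of all genes. Among the 12 were the activator gene fzy at 1.44 and the activator genes rap (fzr) at -3.02 and cort at -5.34. After quantile normalization 5 of these 12 were higher and 4 lower, and after median-ratio scaling 4 and 7, where 53.5% and 47.7% of the calls over all genes were higher. Among 3 genes of the pan gu kinase, which promotes the accumulation of Cyclin B protein in the early embryo, png (-5.20) and gnu (-6.33) were lower. The third, plu, was higher (0.92, adjusted p = 0.0152 by limma), a call lost with a pseudocount of 0.1 (adjusted p = 0.382 by limma) and without either ovary library or embryo replicate 1 (0.0620 to 0.0871).

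**Figure D4:**
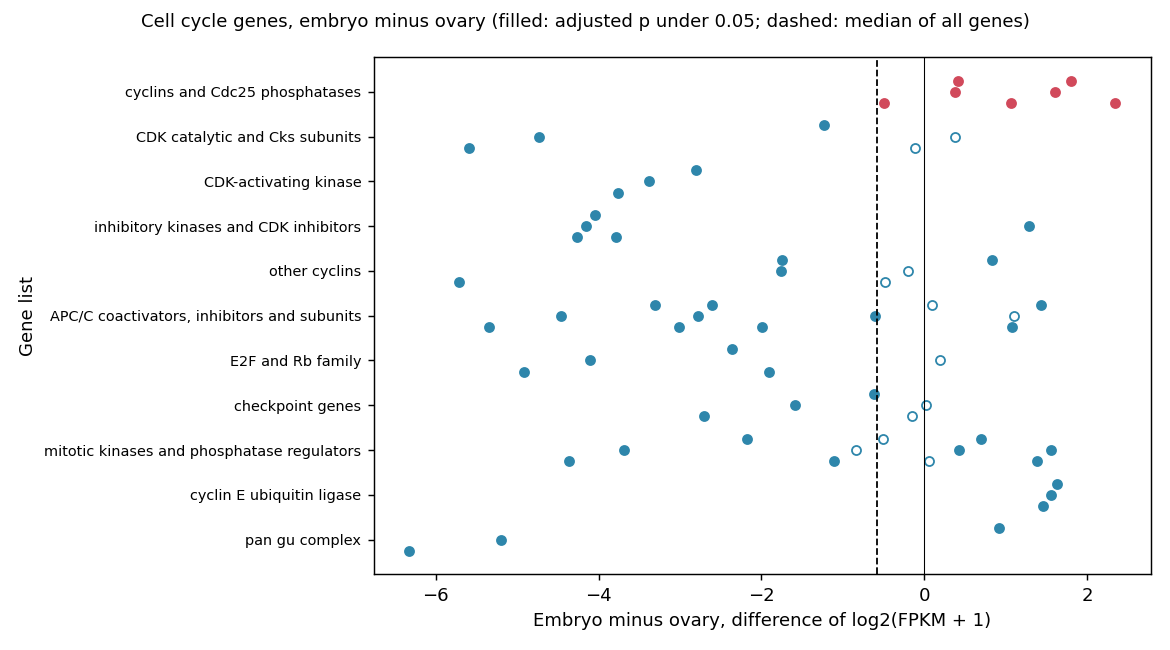
Embryo minus ovary differences of log2(FPKM + 1) for the 7 members (top row) and for 58 genes of 10 cell cycle lists, filled where called by limma; the dashed line is the median of all genes, -0.58. Of the members 6 lie right of 0 and stg left of it (right of it after median-ratio scaling), and 34 of the 58 list genes are called lower (28 after median-ratio scaling). As deposited, 44.8% of all genes tested are called lower.

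The genes whose pattern over the 8 libraries was most like that of each member were sought by the root mean square difference (RMSD) of centred log2(FPKM + 1), among 8811 other genes. For CycA they were mu2 (0.16), cmet (0.22) and mus309 (0.25). For CycB they were tef (0.19), wech (0.20) and sced (0.29), the same 3 genes as for twe, where wech stood at 0.20, sced at 0.33 and tef at 0.33. For CycB3 they were CG3227 (0.40), CG11164 (0.40) and dup (0.41), for CycD Mtor (0.09), CG12877 (0.10) and CG4877 (0.11), and for CycE gwl (0.16), mu2 (0.23) and mud (0.25). For stg they were CG11133 (0.10), CG13742 (0.14) and sub (0.15). Among the members, twe was the 4th nearest gene to CycB and CycE the 4th nearest to CycA. In contrast, twe was the 2994th nearest to stg and stg the 1269th nearest to twe, both at an RMSD of 1.57. The libraries of a group share their source, so these likenesses describe 4 groups.

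Some of the members overlap other genes. In the later annotation at hand, an exon of twe overlaps an exon of EndoGI on the opposite strand, and exons of CycE overlap 2 non-coding genes on the opposite strand. CycA overlaps CG7264, also on the opposite strand and with no shared exon, whose highest value was 4.01 FPKM, in OSS. EndoGI was lower in both embryo libraries, at 17.9 FPKM or below, than in the other 6, at 63.7 or above, and its highest values, 159 and 170, were those of OSS, an order unlike that of twe. The labels and headers do not say whether the authors counted by strand, so reads of such pairs cannot be told apart. Positions are not given, because that annotation is for another build than dm3, the build of the deposited values.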

How the data were processed

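Total RNA was depleted of ribosomal RNA and made into ScriptSeq libraries, per the labels. The deposited gene values are FPKM per gene symbol, computed by the authors; Cufflinks, TopHat, Bowtie, CASAVA 1.3 and the build dm3 are named, with no role for each, in the submitters' processing notes. The annotation, filters and strand setting are not stated there. In carcass replicate 1, 1070 of 14147 lines hold no number, and in carcass replicate 2, 5 lines, all treated as missing. None is a member. Names on more than 1 line (93) were left out. Ratios of low FPKM values, read as whole fragments, put replicate 1 at 1.31 times the depth of replicate 2 in OSS, 1.48 times in ovary and 0.868 times in embryo. In carcass too few low values fell on such ratios.

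Tested genes had 1 FPKM or more in 2 or more libraries. The test ran on log2(FPKM + 1), a scale that understates differences of low genes, with limma 3.58.1 in R 4.3.3 (eBayes with trend, 2-sided), in 1 fit over 8 libraries with 4 residual degrees of freedom. The code was tested on simulated data. All 7 members are named in every comparison, with the 3 nearest genes of each member by RMSD. The list genes named are a selection, most of them partners or regulators of the members. The largest called differences of a list are not all given. Members and lists were chosen with earlier results of these data known. Alternatives were a pseudocount of 0.1, no filter, quantile normalization, median-ratio scaling, a fit on 2 groups, no trend, a replicate block and leaving out each library.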

Additional observations from a re-analysis of the deposited data

How the results depend on the processing

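Of 630 repeats of the members' differences (7 genes, 6 comparisons and 15 settings), 618 kept their direction and side of the threshold, 6 passed it anew, 4 lost it and 2 turned. A fit on 2 groups, no filter, no trend, a replicate block or leaving out a library outside the comparison cannot change a member's difference. Those settings can change only its call, so their repeats say nothing on direction. Median-ratio scaling turned stg from -0.49 to 0.75 between embryo and ovary and from -0.17 to 1.15 between embryo and OSS, cdc2, Cks30A and grp between embryo and ovary to 1.14, 0.0095 and 0.63, and Cks85A and CycG between ovary and carcass to -0.28 and -0.63. The cause of these turns was not tested beyond the shift of the median that the scaling brings. Settings that end or begin the call of a partner gene stand beside its value. The settings for partner and regulator genes were chosen after seeing the data. The number of genes called between ovary and OSS was 7289 in a fit on these groups alone and 2879 to 5596 when each library was left out. With a replicate block it was 4566, and the members called were 7 against carcass, 6 against OSS and 7 between embryo and ovary, as without the block. Deviations of equal replicate numbers correlated by -0.0664 to 0.0225 between groups. These values gave no sign that the numbers pair libraries, but with 2 libraries per group they cannot exclude it. The precision of all values is limited by 2 libraries per group and by read totals that are not given.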
